A study of Mus musculus with 12 samples.

Results

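The cyclins, kinases and inhibitors that set the pace of the G1 phase of the cell cycle were followed in mouse blood stem cells and in the progenitors just below them, with and without the transcription factor NFAT5. The set was defined by name and holds 10 genes: the D-type cyclins Ccnd1, Ccnd2 and Ccnd3, their kinases Cdk4 and Cdk6, cyclin E1 (Ccne1), the Cip/Kip inhibitors Cdkn1a (p21) and Cdkn1b (p27), and the INK4 inhibitors Cdkn2c (p18) and Cdkn2d (p19). Of these, 9 had a probe set among the 19494 genes named on the arrays, each of them a single probe set, and all 9 were among the 14620 genes tested. Ccnd1 was not analysed here.

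RNA came from bone marrow cells of untreated mice, isolated by FACS (cell sorting by surface marker). Hematopoietic stem cells (HSC) were sorted as CD48-CD150+ and multipotent progenitors (MPP) as CD48+CD150- cells, both within the LSK compartment, the lineage-negative, Sca-1-positive, Kit-positive fraction of marrow. Nfat5 fl/fl Vav-Cre mice, called KO, carry Nfat5 alleles that Cre recombinase can excise, and Nfat5 +/+ Vav-Cre mice, called WT, carry Cre with intact Nfat5. Vav-Cre is active throughout the blood system, so Nfat5 was targeted in the mature blood cells of these mice as well as in the sorted ones. The 4 groups, HSC of WT mice, HSC of KO mice, MPP of WT mice and MPP of KO mice, held 3 arrays each, and every one of the 6 mice gave 1 HSC array and 1 MPP array. The WT mice are numbered 3, 12 and 64 and the KO mice 2, 11 and 70. Age, sex and strain background are not stated in the labels used here.

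In G1, D-type cyclins bind CDK4 and CDK6, and the active kinases phosphorylate the retinoblastoma protein, which then releases E2F factors to switch on the genes of DNA replication. Cyclin E with CDK2 completes that step. INK4 proteins bind CDK4 and CDK6 and keep cyclin D away, while Cip/Kip proteins bind cyclin and kinase complexes, block CDK2, and can also help cyclin D and CDK4 to assemble. Long-term blood stem cells are known to be mostly quiescent, and CDK6 in particular is known for its role in how fast they leave quiescence.

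The values are log2 signals from arrays, so a difference of 1 is a doubling, and 300 pg of RNA per sample was amplified before labelling. Array medians lay between 5.81 and 5.91. The HSC array of KO mouse 2 departed most from its group, with an SD of deviations over all genes of 0.438 log2 units where the rest had 0.276 to 0.378. The targeted gene, Nfat5, lay between 8.27 and 8.99 in HSC of WT mice and between 7.34 and 7.89 in HSC of KO mice. In MPP it lay between 7.82 and 8.28 in WT mice and between 6.99 and 7.45 in KO mice. The genotypes thus did not overlap in either population, as was the case for 8.87% of all genes in HSC and 9.49% in MPP. Between KO and WT, 0% of all genes had an adjusted p under 0.05 in limma's test in either population, so Nfat5 itself did not pass. The labels do not say whether its probes lie inside the excised part. Slamf1, which encodes CD150, was higher in HSC over both genotypes by 2.36 log2 units, and Cd48 was lower with a difference of -3.00, as sorted. Of the wider stem cell gate list 8 of 13 genes were higher, beside 1.93% of all genes. Of the progenitor gate list 7 of 8 were lower, Flt3 with -3.35 among them, beside 2.92% of all genes. These lists hold genes outside the sort and were chosen with earlier results of these data known, so their counts are no independent check. Since the arrays measured sorted populations in bulk, fewer cells with a transcript and less of it per cell cannot be told apart.

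RefSeq promoter windows of GRCm38.p6, running from 250 bases before a start site to 50 bases after it, were found for 8 of the genes, 11 windows in all. Cdk6, Cdkn1b and Cdkn2c passed between HSC and MPP over both genotypes, and of these 3 only Cdk6 also passed with the arrays of each mouse paired. Their windows are printed here with that of Cdk4, the partner kinase of Cdk6. Each is written 5′ to 3′ on the gene's strand, and capitals mark matches to the E-box CACGTG, the palindromic site that MYC with MAX can bind.
Cdk6, chr5:3343643-3343942, plus strand: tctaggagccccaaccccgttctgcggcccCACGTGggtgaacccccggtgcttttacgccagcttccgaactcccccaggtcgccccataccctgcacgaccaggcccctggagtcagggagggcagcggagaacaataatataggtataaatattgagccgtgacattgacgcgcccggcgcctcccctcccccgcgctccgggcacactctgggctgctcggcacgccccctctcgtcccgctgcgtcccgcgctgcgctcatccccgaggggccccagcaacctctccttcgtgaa
Cdk4, chr10:127063285-127063584, plus strand: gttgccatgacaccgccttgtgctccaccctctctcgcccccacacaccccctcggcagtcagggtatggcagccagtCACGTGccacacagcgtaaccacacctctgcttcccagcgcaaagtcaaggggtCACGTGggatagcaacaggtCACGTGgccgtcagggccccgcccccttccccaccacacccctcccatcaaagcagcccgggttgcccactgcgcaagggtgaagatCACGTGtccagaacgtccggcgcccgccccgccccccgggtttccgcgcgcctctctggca
Cdkn1b, chr6:134920151-134920450, plus strand: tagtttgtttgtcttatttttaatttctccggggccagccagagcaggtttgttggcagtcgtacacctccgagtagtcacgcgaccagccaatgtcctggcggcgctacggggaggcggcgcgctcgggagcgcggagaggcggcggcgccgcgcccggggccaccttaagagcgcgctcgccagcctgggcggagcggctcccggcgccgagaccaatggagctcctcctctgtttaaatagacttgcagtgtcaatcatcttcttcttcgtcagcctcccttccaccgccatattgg
Cdkn2c, upstream start site, chr4:109666707-109667006, minus strand: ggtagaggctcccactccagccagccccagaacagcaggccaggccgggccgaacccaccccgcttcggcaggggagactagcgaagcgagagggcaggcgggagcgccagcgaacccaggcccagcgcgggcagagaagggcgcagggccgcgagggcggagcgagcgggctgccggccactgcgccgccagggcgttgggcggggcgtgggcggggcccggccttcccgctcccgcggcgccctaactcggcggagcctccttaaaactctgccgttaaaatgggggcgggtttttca
Cdkn2c, downstream start site, chr4:109665323-109665622, minus strand: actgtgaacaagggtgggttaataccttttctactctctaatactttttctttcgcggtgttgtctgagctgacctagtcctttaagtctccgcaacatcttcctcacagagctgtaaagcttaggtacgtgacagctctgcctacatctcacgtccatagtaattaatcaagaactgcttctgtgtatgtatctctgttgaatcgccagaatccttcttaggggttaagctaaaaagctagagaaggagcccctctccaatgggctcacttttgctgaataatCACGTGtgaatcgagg
The E-box occurred 4 times in the Cdk4 window, at positions -172, -118, -98 and -11 from the start site. It occurred once in the Cdk6 window, at -220, and once in the downstream Cdkn2c window, at 35, and 7.15% of 32851 windows of 300 bases hold it. The same 11 windows were searched on both strands for 5 other motifs, with overlaps between motifs allowed. The E2F site, TTTCCCGC or TTTGGCGC, is found in 1.56% of all windows and in 0 of the 11. The NFAT core TGGAAA, found in 21.4% of all windows, and the cell cycle homology element TTTGAA, in 17.9%, also had no match in the 11. No match says only that these letters are not in these windows. The forkhead site TGTTTAC, in 3.65% of all windows, occurred in 1 of the 11, a Ccnd3 window, and the GC box GGGCGG, in 35.7%, occurred in 8 of them. A match is a description of letters and no evidence of binding.

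The comparison of HSC with MPP asks how the G1 genes differ across the step from stem cell to progenitor. Over both genotypes, Cdk6, Cdkn1b and Cdkn2c were lower in HSC, and no G1 gene passed the test as higher. The 3 of 9 stand beside 4.85% of all genes tested that passed in either direction, of which 2.92% were lower in HSC and 1.93% higher. In WT mice alone 2 of 9 passed, Cdk6 and Cdkn2c, both lower in HSC, against 2.07% of all genes in either direction and 1.32% lower in HSC. In KO mice alone 0 of 9 passed, against 1.26% of all genes in either direction and 0.739% lower in HSC. In the same comparison 4 of 9 had an unadjusted p under 0.05 in limma's test, as did 1806 of the 14620 genes tested. The counts were 5 of 9 beside 2063 genes in WT mice and 6 of 9 beside 2869 over both genotypes. The median difference of the 9 genes, HSC minus MPP, was -0.62 in WT, -0.55 in KO and -0.65 over both, where the median of all genes was 0.032, 0.051 and 0.047. With the mouse as a block, which pairs the 2 arrays of each animal, 0 of 9 passed in WT, where 1.23% of all genes (180) did, and 1 of 9 passed over both genotypes, where 3.73% (546) did.

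**Figure D1:**
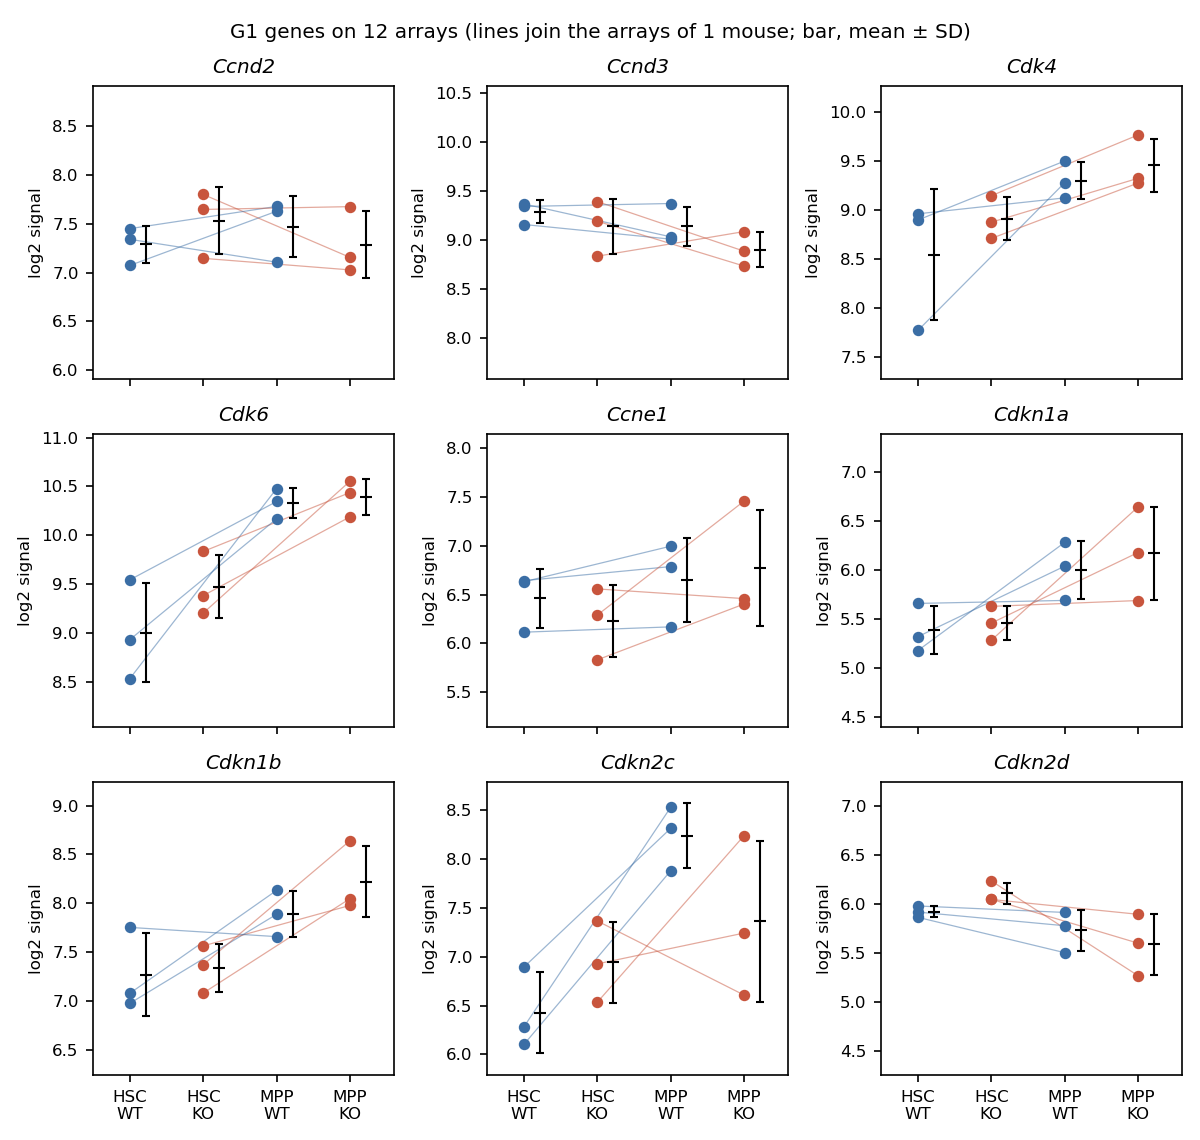
Log2 signal (y axis) of each G1 gene on every array, grouped on the x axis as HSC or MPP of WT (blue) or KO (red) mice; thin lines join the 2 arrays of 1 mouse and bars give the mean ± SD of 3 arrays. Cdk6 and Cdkn1a are the genes whose 6 HSC values all lie below their 6 MPP values.

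Neither Ccnd2 nor Ccnd3, the D-type cyclins measured, passed between the populations. Ccnd2, one of the D cyclins expressed in blood cells, read 7.07, 7.34 and 7.45 in HSC of WT mice and 7.15, 7.80 and 7.65 in HSC of KO mice. In MPP it read 7.63, 7.11 and 7.68 in WT and 7.03, 7.16 and 7.67 in KO, each time in the mouse order given above. The 4 groups overlapped, and Ccnd2 was lower in HSC in 3 of 6 mice. The difference over both genotypes was 0.03 (95% interval -0.34 to 0.41).

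Ccnd3 read 9.34, 9.16 and 9.37 in HSC of WT mice and 9.39, 8.83 and 9.19 in HSC of KO mice. Its MPP values were 9.37, 9.01 and 9.03 in WT mice and 8.89, 9.09 and 8.73 in KO mice. Its difference over both genotypes was 0.19 (95% interval -0.086 to 0.48), and it was lower in HSC in 2 of 6 mice.

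The kinases of the D cyclins both read lower in HSC, and Cdk6 carried the clearest difference of the set. Cdk6 read 8.54, 9.55 and 8.93 in HSC of WT mice and 9.21, 9.84 and 9.38 in HSC of KO mice. In MPP it read 10.48, 10.35 and 10.17 in WT mice and 10.55, 10.44 and 10.19 in KO mice. Every HSC array lay below every MPP array, which held for 2 of the 9 genes, Cdk6 and Cdkn1a. Counting both directions, 4.21% of all genes tested had HSC and MPP values that did not overlap. Within a mouse the difference ran from -1.94 in WT mouse 3 to -0.60 in KO mouse 11.

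Over both genotypes Cdk6 fell by 1.12 on the log2 scale from MPP to HSC (SE 0.18, limma adjusted p = 0.00464, 95% interval -1.52 to -0.73), to 45.9% of the MPP level. It was lower in 6 of 6 mice and passed under all 15 settings tried, with adjusted p from 0.00314 to 0.0323, the mouse block included at 0.0245; it was 0.0118 with the HSC array of KO mouse 2 dropped. In WT mice the difference was -1.33 (SE 0.25, adjusted p = 0.0259), or 39.9% of MPP. That WT call was lost with the mouse block at an adjusted p of 0.0782. Leaving out WT mouse 3 took the difference to -1.02 and the adjusted p to 0.201. Leaving out WT mouse 64 gave an adjusted p of 0.175, and leaving out KO mouse 70, which enters only the estimate of spread, gave 0.0537. A fit on the WT arrays alone gave 0.0685. In KO mice the difference was -0.92 (SE 0.25) with an adjusted p of 0.131. The change of the difference with genotype was 0.41 (95% interval -0.38 to 1.20), and its adjusted p of 0.9996 did not pass.

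Cdk4 read 8.90, 8.96 and 7.77 in HSC of WT mice and 9.15, 8.88 and 8.71 in HSC of KO mice. Its MPP values were 9.50, 9.13 and 9.28 in WT mice and 9.77, 9.33 and 9.28 in KO mice. The HSC array of WT mouse 64 stood apart as the lowest, and HSC and MPP values did not overlap within either genotype. Such separation was seen for 4 of 9 genes in WT mice (Cdk4, Cdk6, Cdkn1a and Cdkn2c), against 21.3% of all genes, and for 5 of 9 in KO mice (Cdk4, Cdk6, Cdkn1a, Cdkn1b and Cdkn2d), against 17.1%. Over both genotypes the difference was -0.65 (SE 0.21, adjusted p = 0.115), negative in 6 of 6 mice, and it did not pass. Of the 9 genes, 3 read lower in HSC in all 6 mice, Cdk4, Cdk6 and Cdkn1a, where 6.19% of all genes did.

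Ccne1, the cyclin that drives CDK2 at the end of G1, showed no difference beyond its spread. It read 6.64, 6.63 and 6.12 in HSC of WT mice and 6.56, 5.83 and 6.29 in HSC of KO mice. In MPP it read 6.79, 6.99 and 6.17 in WT mice and 6.46, 6.40 and 7.45 in KO mice, with the groups overlapping and KO mouse 70 highest. The difference over both genotypes was -0.37 (95% interval -0.87 to 0.14, adjusted p = 0.408).

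Both Cip/Kip inhibitors read lower, not higher, in the stem cell gate, and Cdkn1b passed. Cdkn1b read 6.98, 7.75 and 7.08 in HSC of WT mice and 7.08, 7.57 and 7.37 in HSC of KO mice. Its MPP values were 7.89, 7.66 and 8.13 in WT mice and 8.05, 7.98 and 8.64 in KO mice. HSC and MPP did not overlap in KO mice, while in WT mouse 12 the HSC array was 0.094 above the MPP array, the 1 exception among 6 mice.

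Over both genotypes Cdkn1b fell by 0.75 on the log2 scale from MPP to HSC (SE 0.18, limma adjusted p = 0.0379), to 59.4% of the MPP level. With the mouse block its adjusted p was 0.0990. It passed without WT mouse 12 (adjusted p = 0.0242) and was lost when any other mouse was left out: KO mouse 2 (0.103), WT mouse 3 (0.150), KO mouse 11 (0.0608), WT mouse 64 (0.181) or KO mouse 70 (0.115). It was also lost with the HSC array of KO mouse 2 dropped (0.0794), a second quantile normalization (0.0589) or a trended variance (0.0502). Neither genotype passed alone, at -0.62 in WT (adjusted p = 0.301) and -0.88 in KO (adjusted p = 0.150).

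Cdkn1a, the p21 inhibitor that p53 induces, read 5.17, 5.32 and 5.66 in HSC of WT mice and 5.28, 5.63 and 5.46 in HSC of KO mice. In MPP it read 6.28, 6.04 and 5.69 in WT mice and 6.64, 5.69 and 6.18 in KO mice. The highest HSC array, that of WT mouse 64, lay just below the lowest MPP array. The difference over both genotypes was -0.67 (SE 0.18) with an adjusted p of 0.0596, so it did not pass, although it did with KO mouse 11 left out (adjusted p = 0.0369), a second quantile normalization (0.0393) or a trended variance (0.0493). These signals lie close above the level of 4.96 under which genes were left untested, where RMA compresses differences.

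The INK4 inhibitors went different ways. Cdkn2c read 6.28, 6.10 and 6.89 in HSC of WT mice and 6.93, 6.53 and 7.36 in HSC of KO mice. In MPP it read 8.53, 7.88 and 8.31 in WT mice but 7.24, 8.24 and 6.61 in KO mice. All WT HSC arrays lay below all WT MPP arrays, and the KO MPP arrays spread from the HSC range up to the WT MPP range, with an SD of 0.82 against 0.33 in WT.

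In WT mice Cdkn2c fell by 1.81 on the log2 scale from MPP to HSC (SE 0.39, limma adjusted p = 0.0424), to 28.5% of the MPP level. Over both genotypes it fell by 1.12 (SE 0.28, adjusted p = 0.0445), being lower in 5 of 6 mice and 0.76 higher in KO mouse 70. With the mouse block the adjusted p was 0.128 in WT and 0.117 over both. The WT call was lost without KO mouse 2 (0.0721), WT mouse 3 (0.295), WT mouse 12 (0.176) or WT mouse 64 (0.175), and with the HSC array of KO mouse 2 dropped (0.0529) or a second quantile normalization (0.0533). The call over both genotypes held without KO mouse 70 (0.0188) and was lost without KO mouse 2 (0.122), WT mouse 3 (0.178), KO mouse 11 (0.1102), WT mouse 12 (0.118) or WT mouse 64 (0.102). It was also lost with that HSC array dropped (0.0795), no filter (0.0509), a second quantile normalization (0.0581) or array weights (0.0532). In KO mice the difference was -0.42 (SE 0.39, adjusted p = 0.714), and it was 0.22 when KO mouse 11 was left out.

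Cdkn2d was the only one of the 9 genes that read higher in HSC in all 6 mice. It read 5.98, 5.86 and 5.92 in HSC of WT mice and 6.05, 6.24 and 6.05 in HSC of KO mice. Its MPP values were 5.92, 5.50 and 5.78 in WT mice and 5.90, 5.27 and 5.60 in KO mice. The difference over both genotypes was 0.36 (SE 0.13, adjusted p = 0.148) and did not pass. Counting both directions, 4 of 9 genes moved the same way in all 6 mice, against 13.9% of all genes.

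**Figure D2:**
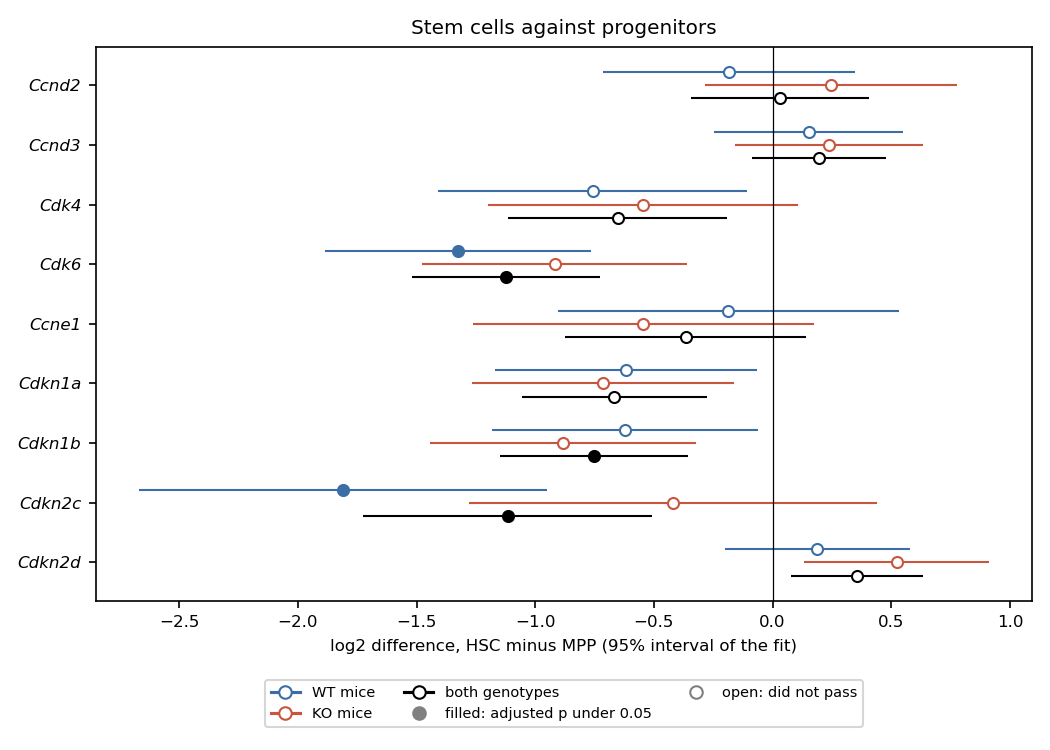
Log2 difference, HSC minus MPP (x axis), of each G1 gene in WT mice, KO mice and both together; bars are 95% intervals of the limma fit, and filled points had an adjusted p under 0.05. Cdk6, Cdkn1b and Cdkn2c passed over both genotypes, all below 0, and the 2 D cyclins lie around 0.

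The next comparison asks whether loss of NFAT5 alters G1 genes within each population. None of the 9 genes passed in HSC, in MPP, in the mean of both populations per mouse or in the interaction. In each of these comparisons 0% of all genes passed limma's test as well. Of the 14620 genes tested, 919 in HSC, 466 in MPP, 650 in the mean and 658 in the interaction had an unadjusted p under 0.05. Of the 9 G1 genes the number with an unadjusted p under 0.05 was 0 in HSC, 1 in MPP, 0 in the mean and 1 in the interaction. Separation of all KO from all WT values was seen for 1 of 9 genes in HSC and 0 of 9 in MPP, where 8.87% and 9.49% of all genes had no overlap.

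In HSC the differences, KO minus WT, ran from -0.24 for Ccne1 to 0.52 for Cdkn2c, with a median of 0.19 against 0.021 for all genes. Cdk6 stood at 0.47 (95% interval -0.090 to 1.03, adjusted p = 0.848). Cdk4 stood at 0.37 (95% interval -0.28 to 1.02). Without the low array of WT mouse 64, the Cdk4 difference was -0.019. The intervals of both kinases include a doubling in KO stem cells. The gene without overlap was Cdkn2d, at 0.19 (95% interval -0.20 to 0.58).

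In MPP the differences ran from -0.88 for Cdkn2c to 0.33 for Cdkn1b, with a median of 0.062 against 0.0024 for all genes. Cdkn2c was the gene with an unadjusted p of 0.0465 (limma adjusted p = 0.99991, 95% interval -1.74 to -0.016). Its KO value in mouse 11, 8.24, lay inside the WT range of 7.88 to 8.53, and its values in mice 2 and 70 lay below that range. Cdk6 stood at 0.062 (95% interval -0.50 to 0.62) and Ccnd3 at -0.24 (95% interval -0.63 to 0.16).

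Averaged over both populations of a mouse, the differences ran from -0.19 for Ccnd3 to 0.27 for Cdk6. The interaction, the HSC-to-MPP difference in KO mice minus that in WT mice, was largest for Cdkn2c among the 9 genes, at 1.39 (95% interval 0.18 to 2.61). Its unadjusted p was 0.0286 and its adjusted p 0.9996, so it did not pass.

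**Figure D3:**
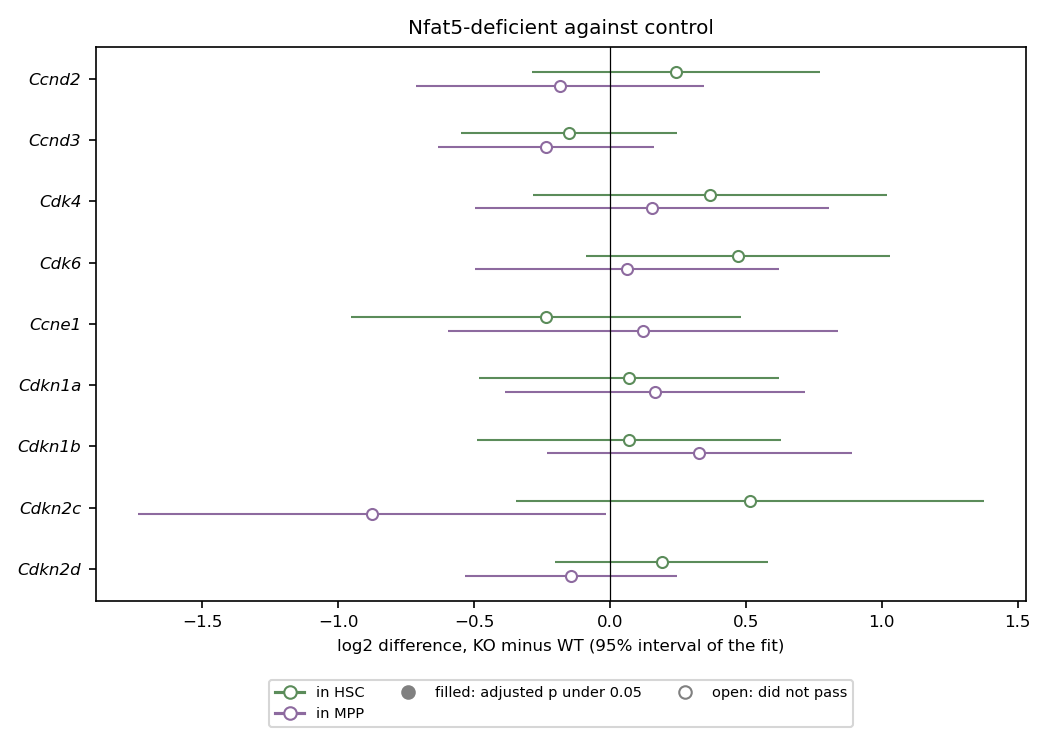
Log2 difference, KO minus WT (x axis), of each G1 gene in HSC (green) and MPP (purple); bars are 95% intervals of the limma fit and open points did not pass. All 9 genes are open in both populations, and only the MPP interval of Cdkn2c leaves out 0.

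The wider cell cycle network was read from fixed lists, in the order in which G1 signals pass through it. Differences are HSC minus MPP over both genotypes unless a genotype is named. Of all genes tested, 4.85% passed over both genotypes, 2.92% lower in HSC and 1.93% higher. Among the other G1 engine genes 2 of 12 tested passed, both lower in HSC. These were Cdk1, the mitotic kinase, at -1.37 (SE 0.23, adjusted p = 0.00561), and its partner cyclin Ccna2 at -0.63 (SE 0.14, adjusted p = 0.0288). The list median was -0.42. Ccna2 did not pass with the mouse block (adjusted p = 0.0755), and 1 gene passed without mouse 2, 3, 64 or 70. Cdkn1c, the p57 inhibitor known for holding stem cells in quiescence and named here after its value was seen, stood at 0.089 (SE 0.12, adjusted p = 0.705). Ccna1 and Cdkn2a lay below the level tested.

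The Rb, E2F and DREAM genes repress or activate the replication programme. Of these, 5 of 18 were lower in HSC and 1 was higher, beside 2.92% and 1.93% of all genes. The list median was -0.55. The lower ones were E2f8 at -1.60, the pocket protein gene Rbl1 (p107) at -1.53, Lin54 at -1.18, Rbbp4 at -0.99 and Tfdp1, the E2F dimer partner, at -0.87. E2f5, a repressor E2F, was the higher one at 0.94 (adjusted p = 0.0464, and 0.116 with the mouse block). Tfdp1 also did not pass with the block (adjusted p = 0.104). Without mouse 3, 12, 64 or 70 the list had 3 passing genes. Rb1 itself stood at -0.53 (adjusted p = 0.231), and E2f1 lay below the level tested.

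Of the ubiquitin ligase parts that turn over G1 proteins, 2 of 15 passed, beside 4.85% of all genes. The list median was -0.29. Dtl, the substrate receptor that targets p21 and CDT1, was lower in HSC at -1.32 (SE 0.24, adjusted p = 0.00848), and Cks1b, the cofactor of SKP2 in p27 turnover, was lower at -1.38 (SE 0.26, adjusted p = 0.0118). Without mouse 2 or 3 the count was 1. Skp2 stood at -0.30 (adjusted p = 0.451). Of 11 upstream regulators of the inhibitors, whose median was 0.093, 0 passed in limma's test and 1 had an unadjusted p under 0.05. That gene was Egr1, an immediate early factor, at 1.52 (adjusted p = 0.0506), and 1 gene of the list passed with the mouse block and without mouse 70.

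Of the E2F target and S phase genes 7 of 22 were lower in HSC and 0 higher, beside 2.92% and 1.93% of all genes. Of the 22, 21 were below 0, with a list median of -0.73. Rrm2, a ribonucleotide reductase subunit, stood at -1.45, the helicase subunit genes Mcm5 and Mcm4 at -1.25 and -1.20, and Cdc6, which loads that helicase, at -1.17. With the mouse block Mcm3 (adjusted p = 0.0769) and Mcm6 (0.0604) no longer passed, and without mouse 11 or 64 the count was 4. Of the mitosis genes 13 of 17 were lower in HSC, and all 17 were below 0, with a median of -1.11. The kinesin gene Kif23 stood at -1.53 (adjusted p = 0.000649) and the proliferation marker Mki67 at -0.94 (adjusted p = 0.00553). With the mouse block Aurkb (adjusted p = 0.112), Nusap1 (0.107) and Tpx2 (0.0530) no longer passed, and without mouse 12 or 64 the count was 7. In WT mice alone 2 of 22 S phase genes and 6 of 17 mitosis genes passed as lower, beside 1.32% of all genes. In KO mice alone 1 S phase gene and 0 mitosis genes did, beside 0.739% of all genes. Between KO and WT, 0 genes of any of these lists passed in HSC, in MPP or in the mean.

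**Figure D4:**
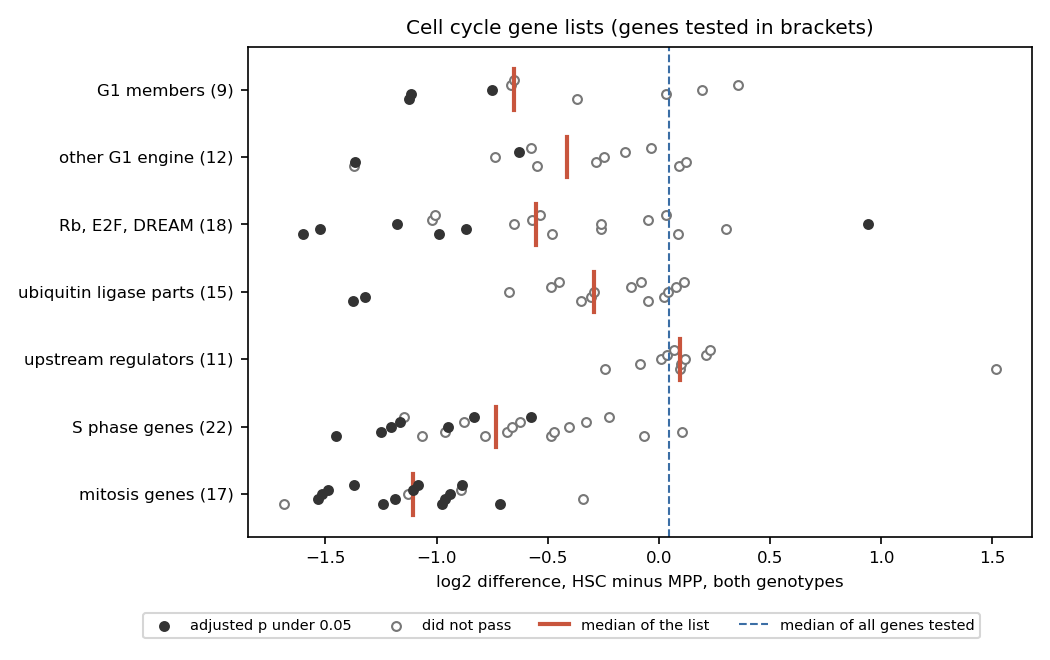
Log2 difference, HSC minus MPP over both genotypes (x axis), of every tested gene of each cell cycle list (y axis); filled points had an adjusted p under 0.05, red bars are list medians, and the dashed line is the median of all genes, 0.047. The list medians run from 0.093 for upstream regulators to -1.11 for mitosis genes.

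Some markers of other cell types also differed between the gates, with each list measured as the log2 of its summed signal on an array. The sums take in measured genes below the tested level as well. Over both genotypes 2.92% of all genes tested were lower in HSC and 1.93% higher. B cell markers ran from 8.76 to 9.13 in HSC and from 9.79 to 10.4 in MPP, with 4 of 6 tested genes lower in HSC, Vpreb1 at -2.19 and Ebf1 at -2.07 among them. T and NK cell markers, 7 in the sum, ran from 7.67 to 8.14 in HSC and from 8.69 to 9.23 in MPP. Of the 3 tested 1 was lower, Nkg7 at -2.18, with means of 5.94 in HSC and 8.66 in MPP of WT mice. The T cell genes Cd3e and Cd8a stood at -0.014 and -0.055 and did not pass. Monocyte and macrophage markers ran from 8.44 to 8.98 and from 9.003 to 9.56, with 3 of 8 lower in HSC, Ccr2, Csf1r and Ly86. Passing or not, 5 of the 8 were below 0 and 3 were above it. Megakaryocyte markers ran from 10.2 to 10.9 in HSC and from 9.40 to 9.94 in MPP, with 1 of 6 higher in HSC, Pf4 at 2.11. With the mouse block, Igll1 among the B cell markers (adjusted p = 0.0509), Csf1r (0.132) and Ly86 (0.0795) no longer passed, nor did Meis1 of the stem cell gate (0.0781).

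Neutrophil markers spread widely, from 9.42 to 12.4 in HSC and from 8.06 to 10.96 in MPP, with 0 of 8 passing in limma's test and 0 at an unadjusted p under 0.05. Erythroid markers ran from 8.80 to 9.18 and from 8.71 to 9.23 with 0 of 5 passing and 1 at an unadjusted p under 0.05. Endothelial markers ran from 8.57 to 9.19 and from 8.70 to 9.36 with 1 of 4 lower, Pecam1 at -1.20, beside 2.92% of all genes. Passing or not, 2 of the 4 were below 0 and 2 were above it. No marker is at 0 on this scale, which has no true zero. The part of these cell types in the differences of the G1 genes was not tested.

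Genes with the most similar course over the 12 arrays were ranked by the root mean square distance between mean-centred profiles, as a description of these arrays. Nearest to Cdk6, whose own profile has a root mean square of 0.643 log2 units, were the histone genes H2bc7 at 0.189 and H2bc14 at 0.204 and the lymphoid transcription factor gene Ikzf1 at 0.211. Nearest to Cdkn1b (0.476) were Ppat at 0.231, Psmd8 at 0.236 and Dpysl2 at 0.237. Nearest to Cdkn2c (0.793) were Parpbp at 0.377, Gpr65 at 0.380 and Calhm2 at 0.410. These are larger distances in log2 units than those for Cdk6 and Cdkn1b, but the profile of Cdkn2c itself also varied most of the 3.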

How the data were processed

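RNA of 12 sorted samples, an HSC and an MPP sample from each of 6 mice, was measured on 12 arrays. Each deposited value is a log2 signal per probe set that the authors obtained with RMA, and limma was also used, per the submitters' processing notes, with versions not stated in the sources used here. RMA sets the probe signals of all arrays to 1 distribution, so a shift of all transcripts between groups would be removed at that step. Medians of the deposited values still ran from 5.81 to 5.87 on MPP arrays and from 5.85 to 5.91 on HSC arrays. Of 22142 probe sets, 19527 had 1 gene symbol, 0 had several and 2615 had none. The highest-mean probe set was kept for the 33 genes with several, which gave 19494 genes, and the lowest 25% by mean (below 4.96) were left out.

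Group means of all 12 arrays were fitted in 1 model (R 4.3.3, limma 3.58.1, statmod 1.5.0). For the per-mouse mean, 3 KO mice were compared with 3 WT mice. Tests were two-sided and moderated, with Benjamini-Hochberg adjustment over 14620 genes, and an adjusted p under 0.05 counted as passing. The fit was tested on simulated data that held no mouse pairing and no genotype effect, so that test cannot speak to either. With 3 animals per group, the number of arrays limits the precision.

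HSC and MPP arrays of a number come from the same mouse per the labels, which is where the pairing comes from; their residuals correlated by 0.032 to 0.091. The main model has no mouse block, and the block was an alternative, with a consensus correlation of 0.072 for KO against WT. The other alternatives changed the filter, averaged probe sets of 1 gene, repeated quantile normalization, used a trended or robust variance, weighted arrays, fitted the compared arrays alone, or dropped 1 mouse or the HSC array of KO mouse 2.

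The genes and lists were chosen with earlier results of these data known. The text names all members, Nfat5, and the 3 nearest profiles of each member that passed over both genotypes. From the other lists it names some, not all, of the genes that passed, and a few that did not. Those named were not always the genes with the lowest p. Rb1, Skp2, Cdkn1c, Ccna1, Cdkn2a, E2f1 and the genes whose calls the mouse block ended were named after their values were seen.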

Additional observations from a re-analysis of the deposited data

How the results depend on the processing

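The mouse block left 0 of 9 G1 genes passing in WT mice, instead of 2, and 1 over both genotypes, instead of 3. Leaving out the HSC array of KO mouse 2 gave 1 and 1, and a second quantile normalization or only the arrays compared gave 1 in WT mice. Without 1 mouse the number was 0 to 2 in WT mice and 1 to 2 over both genotypes. Over all genes, the calls in WT mice went from 302 to 180 with the block (154 shared) and to 70 to 297 without 1 mouse. In KO mice they went from 184 to 113 with the block, 79 with only the arrays compared, 106 when the HSC array of KO mouse 2 was dropped and 57 to 168 without 1 mouse. Over both genotypes they went from 709 to 379 to 524 without 1 mouse, and for KO against WT in HSC from 0 to at most 1. Of the member calls over both genotypes, Cdk6 passed in 15 of 15 settings, Cdkn1b in 6 and Cdkn2c in 5. The other blocked comparisons changed no call of a member.

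The sign changed in 37 of 949 recomputed differences, all of them without a call, and 33 of these came when a mouse was left out. With array weights the per-mouse mean was 0.014 for Ccne1 and -0.0012 for Cdkn2d, and the interaction of Ccnd3 was -0.024, or -0.040 when the HSC array of KO mouse 2 was dropped. Without 1 mouse, HSC minus MPP ran from -0.39 to 0.0031 for Ccnd2 in WT, from -1.01 to 0.22 for Cdkn2c in KO, and from -0.073 to 0.12 for Ccnd2 over both. KO minus WT in HSC ran from -0.28 to 0.0028 for Ccnd3, -0.019 to 0.58 for Cdk4, -0.033 to 0.21 for Cdkn1a and -0.077 to 0.31 for Cdkn1b. In MPP it ran from -0.0014 to 0.25 for Cdk4, -0.019 to 0.16 for Cdk6, -0.22 to 0.31 for Ccne1, -0.070 to 0.41 for Cdkn1a and -0.30 to 0.016 for Cdkn2d. The per-mouse mean ran from -0.097 to 0.19 for Ccnd2, -0.26 to 0.13 for Ccne1 and -0.048 to 0.083 for Cdkn2d. The interaction ran from -0.048 to 0.33 for Ccnd3, -0.16 to 0.51 for Cdk4, -0.42 to 0.23 for Cdkn1a and -0.49 to 0.099 for Cdkn1b. The causes were not tested. The per-mouse mean took no block and no single array left out, and only the arrays compared did not apply to the comparisons over all 12 arrays. Signals near the lowest tested level, as for Cdkn1a and Cdkn2d, limit what a small difference can show.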
